A study of Mus musculus with 7 samples.

Results

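The cytosolic ribosomal protein genes were described here in mouse group 3 (G3) medulloblastoma, a malignant tumor of the cerebellum. Members were the rows of the count table whose symbols begin with Rpl or Rps and a number, with an optional paralog letter, together with Rplp0, Rplp1, Rplp2 and Rpsa. The rule found 84 genes among the 34592 in the table, and rows named as pseudogenes (-ps) were left out. The ribosomal protein genes Fau, Gnb2l1 (Rack1) and Rpl36al carry symbols outside the rule and are given separately.

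Bulk RNA was sequenced from 7 tumors, 4 that overexpressed human WDR11 (WDR11OE) and 3 controls. All 7 came from G3 tumorsphere line # 19568, started from Trp53-/-; Cdkn2c-/- cerebellar granule neuron progenitors that carried a Myc-IRES-GFP retrovirus. The spheres received a lentivirus with WDR11 and copGFP behind the EF1 promoter or, by the protocol, the empty vector, although the sample labels give the control treatment as none. They were grown in the cortices of CD1-nu/nu mice until the hosts were moribund, and unsorted tumor chunks were used, so tissue of the host can be present. The titles of WDR11OE 1 and 2 share a number whose meaning is not given, and this pair differed least of all pairs within a group (chi-square per degree of freedom of 22.6). All tumors share that single line, so the 7 values per gene measure the spread between grafts of the same cells. The libraries of both groups bear sample numbers of separate series, so the series and the condition cannot be told apart. Total counts were 35463784, 41397427 and 33417175 in control 1 to 3, and 42252257, 85371523, 32116095 and 87141305 in WDR11OE 1 to 4. The human WDR11 transgene has no row in this mouse table. Mouse Wdr11 had 58.8, 58.3 and 59.2 CPM (counts scaled to library size, with TMM normalization) in the controls and 66.8, 61.0, 65.6 and 68.9 in WDR11OE, with a log2 fold change of 0.16 that was not called (adjusted p = 0.0910) and whose sign turned with a trend on GC content removed (-0.023). It was called higher with upper quartile scaling (0.19, adjusted p = 0.0454), with a length trend removed (0.32, adjusted p = 0.0283) and with both trends removed (0.29, adjusted p = 0.0397).

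Each cytosolic ribosome has a small subunit, which decodes the mRNA, and a large subunit, which joins the amino acids, and each ribosomal protein is normally present in a single copy per particle apart from the acidic stalk proteins. Messenger RNAs of these proteins begin with a run of pyrimidines called a TOP motif, through which mTOR and the RNA-binding protein Larp1 set their translation and stability. Myc is a known activator of ribosome production.

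The start sites of the genes at both ends of the ranking by fold change are shown first, because ribosomal protein mRNAs are known for the pyrimidine run at their 5′ end. Of the 5 genes with the highest and the 5 with the lowest fold changes, 7 have an entry in the RefSeq promoter table (build GRCm38.p6, unlike the NCBIM37 build of the counts). Each line gives 40 bases before and 20 bases from the annotated start, on the strand of the gene, and capitals mark a C followed by at least 4 pyrimidines (C or T) that begins within 5 bases of the start. The first 3 are among the highest fold changes in WDR11OE and the other 4 among the lowest. The windows lie at chr16:10170188-10170247 (Rpl39l, plus strand), chrX:37085203-37085262 (Rpl39, minus strand), chr11:114668540-114668599 (Rpl38, plus strand), chr7:4792925-4792984 (Rpl28, plus strand), chr7:141447611-141447670 (Rplp2, plus strand), chr10:80292391-80292450 (Rps15, plus strand) and chr17:24720023-24720082 (Rps2, plus strand).
Rpl39l: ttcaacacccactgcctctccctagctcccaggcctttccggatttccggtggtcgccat
Rpl39: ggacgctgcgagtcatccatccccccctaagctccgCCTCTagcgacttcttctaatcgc
Rpl38: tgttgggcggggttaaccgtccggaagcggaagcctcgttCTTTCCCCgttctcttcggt
Rpl28: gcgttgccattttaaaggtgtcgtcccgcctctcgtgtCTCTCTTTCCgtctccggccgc
Rplp2: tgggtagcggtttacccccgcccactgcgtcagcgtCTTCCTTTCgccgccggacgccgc
Rps15: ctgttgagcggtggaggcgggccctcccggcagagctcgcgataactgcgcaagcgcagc
Rps2: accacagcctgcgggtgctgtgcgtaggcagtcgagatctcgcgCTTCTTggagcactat
The run was present at both ends of the ranking: in Rpl38 and Rpl39, which rose, and in Rpl28, the only member that fell. It was found near 41.9% of the 74 annotated starts of the 62 members in the table, against 18.3% of all 32851 starts. The annotated start itself fell on a C followed by at least 4 pyrimidines, alone or inside a longer run, for 17.6% of member starts and 2.51% of all starts. Of the 29 members with a run, 12 rose (41.4%) and 1 fell (3.45%), with a median log2 fold change of 0.32. Of the 33 with an entry but no run by this rule, 31 were tested, 13 rose (41.9%), and the median was 0.39. Runs that begin outside the window were not counted, as just before the annotated start of Rpl39l, so these members need not lack a TOP motif. Of all genes tested, 18.1% rose and 15.8% fell, with a median of 0.08. No test of that difference was made.

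Other short motifs were searched on both strands of the 300 bases from 250 before to 50 after each start. CCGGAAGT, a site of GABP and other ETS factors, was found at 16.2% of member starts and 3.89% of all starts. AAGATGGC, a core of the YY1 site, was found at 10.8% against 2.75%, and the SP1 box GGGCGG at 59.5% against 35.7%. The E-box CACGTG, which Myc and its partners bind, was found at 10.8% against 7.15%, and the TATA box TATAAA at 9.46% against 13.6%.

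Ribosomal protein mRNAs made up a larger share of the raw counts in every WDR11OE tumor than in any control, but their summed TMM-scaled CPM overlapped. The 84 genes held 4.62%, 4.59% and 5.52% of all counts in control 1 to 3. They held 6.46%, 6.62%, 5.74% and 5.70% in WDR11OE 1 to 4. The means were 4.91% ± 0.53 (SD, n = 3) and 6.13% ± 0.48 (SD, n = 4), a ratio of 1.25. These shares did not overlap, although control 3 came close to WDR11OE 3 and 4. The summed TMM-scaled CPM was 45500, 45296 and 56532 in control 1 to 3. It was 64658, 70491, 56805 and 54377 in WDR11OE 1 to 4, so that control 3 was above WDR11OE 4. As sums over chosen members, these values were given no test. In bulk tissue, a shift in the mix of cells and a change in RNA per cell cannot be told apart.

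Both subunits had higher mean shares, with the larger ratio in the small subunit, and only the small subunit separated the groups. The highest control share of the Rps genes and Rpsa was 2.28% (control 3) and the lowest WDR11OE share 2.49% (WDR11OE 3). For the Rpl and Rplp genes control 3 (3.24%) was above WDR11OE 4 (3.19%). The Rps genes and Rpsa held 2.03% ± 0.22 of counts in the controls and 2.65% ± 0.18 in WDR11OE, a ratio of 1.31, and the Rpl and Rplp genes held 2.88% ± 0.31 and 3.48% ± 0.30, a ratio of 1.21. The log2 ratio of large to small subunit counts was 0.50, 0.49 and 0.50 in the controls. It was 0.41, 0.41, 0.39 and 0.34 in WDR11OE, below every control. Within either group the tumors differed little in this ratio, in contrast to their spread in the summed level.

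**Figure D1:**
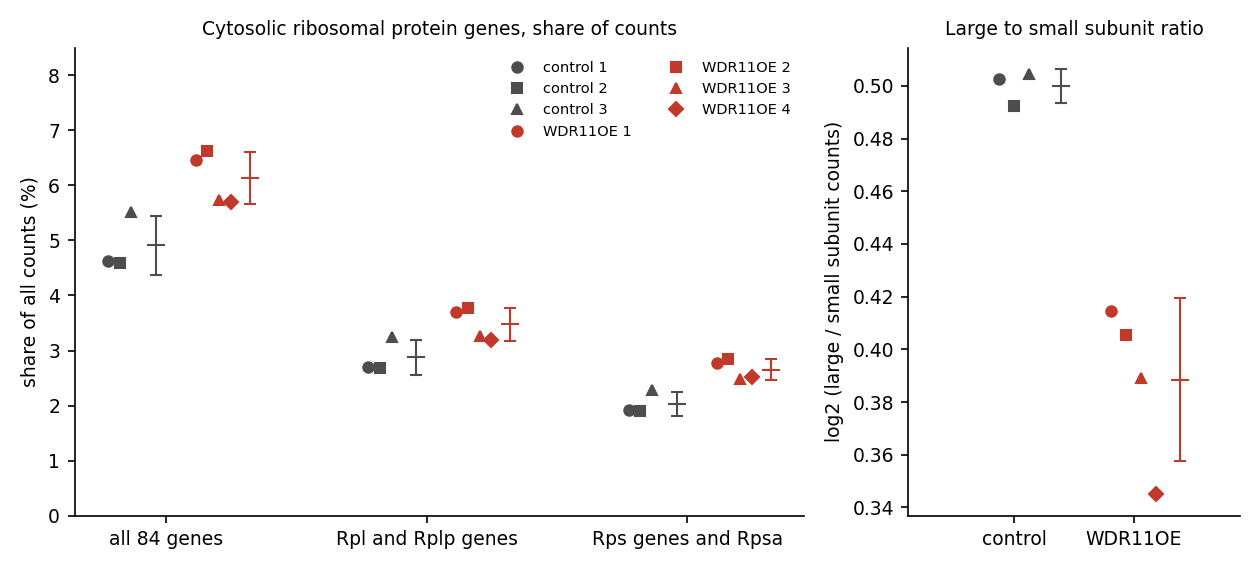
Share of all counts held by cytosolic ribosomal protein genes (left, %, axis from 0) and the log2 ratio of large to small subunit counts (right, axis not from 0), with a symbol per tumor and bars for the mean ± SD of 3 control and 4 WDR11OE tumors. For the share of all members together, the 4 WDR11OE tumors lie at or above 5.70% and the controls at or below 5.52%. The share of the Rpl and Rplp genes alone overlaps, with control 3 at 3.24% and WDR11OE 4 at 3.19%. That of the Rps genes and Rpsa does not overlap. On the right WDR11OE lies at or below 0.41 and the controls at or above 0.49.

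The same tumor of each group was the highest for nearly all genes, while the lowest varied. Control 3 was the highest control for 79 of the 82 members tested, and WDR11OE 2 was the highest WDR11OE tumor for 79. Control 2 was the lowest control for 48 members and control 1 for 33, and WDR11OE 4 was the lowest of its group for 56 and WDR11OE 3 for 24. Summed CPM of 9 neuron markers, which brain tissue of the host also expresses, were lowest in control 3 among the controls and in WDR11OE 1 and 2 among the WDR11OE tumors. They were 480, 147 and 78.8 in control 1 to 3 and 14.1, 31.6, 213 and 692 in WDR11OE 1 to 4, with Gad1 the most abundant by mean level and none of the 9 called by edgeR, limma-voom or DESeq2, nor at an unadjusted p under 0.05 in any of them. With the neuron marker level as a covariate, added after the data were seen, 37 members were called higher (23.1% of all genes) and 4 lower (19.7%). The part of neuron RNA in the members' values was otherwise not tested.

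Of the 84 members, 82 passed the filter on low counts and entered a test across all genes (edgeR quasi-likelihood F test, p adjusted by Benjamini-Hochberg over 17389 genes, called at adjusted p under 0.05). Rpl10l, a retrogene paralog of Rpl10 known from testis, had 0 counts in all 7 tumors, and Rpl3l failed the filter. In WDR11OE, 34 of the 82 rose (41.5%), against 18.1% of all genes tested, and 1 fell (1.22%), against 15.8% of all genes tested. The median log2 fold change of the members was 0.36 (quartiles 0.13 and 0.60), against 0.08 for all genes, and 69 of 82 were above 0. For 38 members every WDR11OE tumor was above every control (46.3%, against 23.6% of all genes), and for 1 member every one was below (1.22%, against 19.1%).

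The changes were mostly small. With a fold of at least 2 added to the rule, 3 members were called higher (3.66%), against 2.36% of all genes, and 0 lower, against 3.45%. The 3 were Rpl39, Rpl38 and Rpl30. limma-voom and DESeq2 each called 4 higher at that fold and 0 lower, and none was that much lower at an unadjusted p under 0.05. The shares of all genes at that fold are given for edgeR only, so the counts of the other tools have no background here.

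The count of calls depended on single tumors, while its excess over the background remained in each case. Without control 1, 17 of 83 members were called higher (20.5%, against 14.5% of all genes), and without control 2, 15 of 83 (18.1%, against 11.6%). Without WDR11OE 1, 12 of 82 were called higher (14.6%, against 9.11%), and without WDR11OE 2, 13 of 82 (15.9%, against 9.65%). Without control 3, the control with the highest share, 41 of 83 were called higher (49.4%, against 14.7%). The median log2 fold change of the members stayed between 0.26 and 0.49 with any tumor left out.

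**Figure D2:**
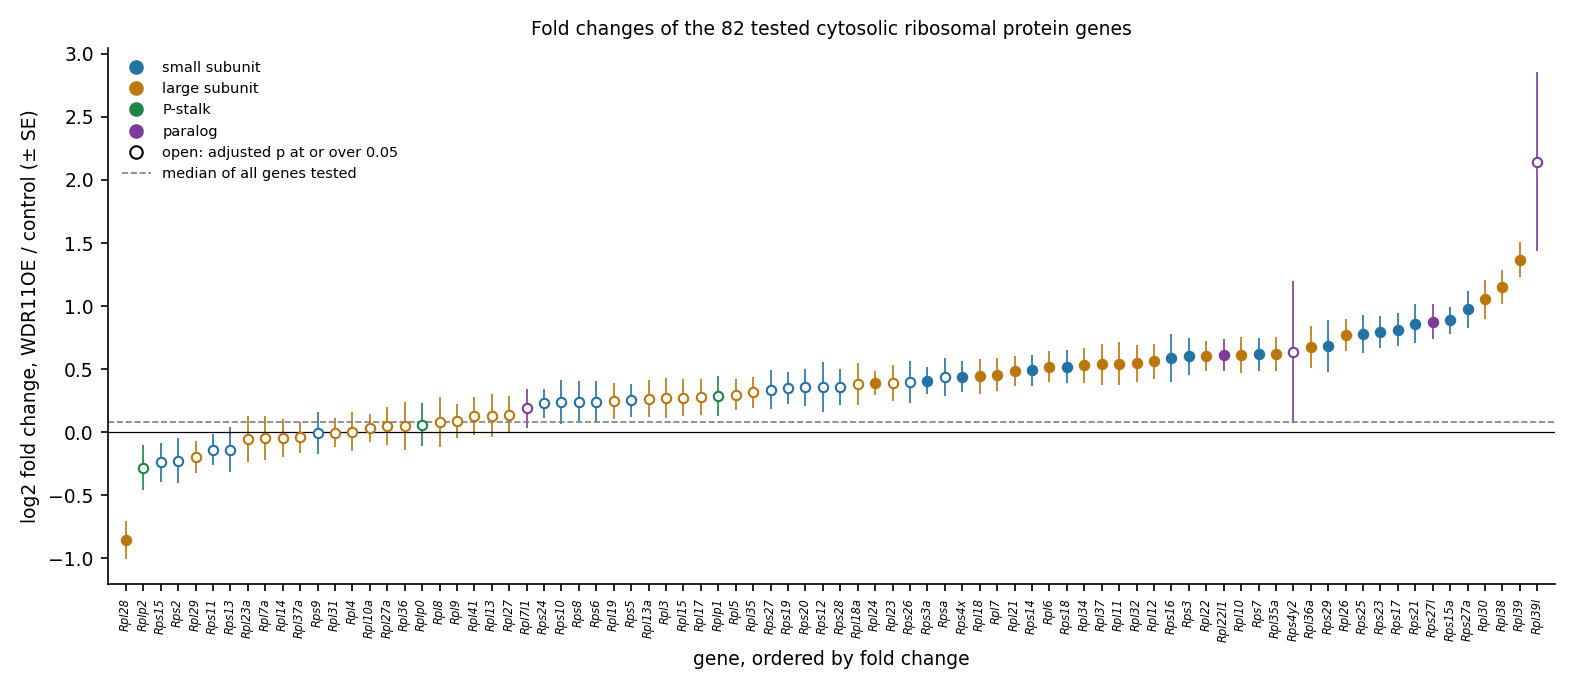
Log2 fold change (WDR11OE over control, bars are ± SE of the edgeR fit) of the 82 tested members, ordered along the x axis and colored by subunit, P-stalk or paralog, with open symbols where the adjusted p was at or over 0.05. The filled points are 34 genes above 0 and Rpl28 below it, and the dashed line is the median of all genes, 0.08.

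Among the 31 genes of the small subunit, 14 rose (45.2%, against 18.1% of all genes) and none fell by edgeR, limma-voom or DESeq2 (against 15.8% by edgeR), with a median log2 fold change of 0.40 and no gene lower at an unadjusted p under 0.05. Rps27a, which is made as a fusion with ubiquitin (chromosome 11, 29445846 to 29448109, minus strand), had 433, 377 and 555 CPM in the controls. It had 913, 976, 857 and 832 CPM in WDR11OE, well above every control. Its log2 fold change was 0.97 ± 0.15 (SE, adjusted p = 0.00297), the largest of this subunit.

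Rps3, which lines the mRNA entry channel, had 958, 1029 and 1212 CPM in the controls and 1683, 1886, 1481 and 1416 in WDR11OE. Its log2 fold change was 0.60 ± 0.15 (adjusted p = 0.0186). The groups did not overlap, but the call was lost without control 1, control 2, WDR11OE 1 or WDR11OE 2 (adjusted p = 0.0726, 0.0677, 0.103 and 0.0890). Rps3a rose by 0.41 (adjusted p = 0.0237) from 845, 780 and 942 CPM to 1097, 1236, 1111 and 1097, and was named after its values were seen. Its call was lost without control 1, control 2, WDR11OE 1, WDR11OE 2 or WDR11OE 3 (adjusted p = 0.0770, 0.0830, 0.123, 0.128 and 0.0511).

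Other known small subunit genes did not pass. Rps6, the substrate of S6 kinase, had 487, 430 and 618 CPM in the controls and 679, 683, 508 and 552 in WDR11OE, with a log2 fold change of 0.24 and an adjusted p of 0.307. Rps19, the gene most often mutated in Diamond-Blackfan anemia, had 676, 691 and 787 CPM against 970, 1045, 858 and 783, with a log2 fold change of 0.35 and an adjusted p of 0.0744. For both genes control 3 overlapped the WDR11OE tumors. Rps24, among the 3 most abundant members per kilobase of coding transcript, had a log2 fold change of 0.23 (adjusted p = 0.168). Rps15 and Rps2, which lie near the path of the mRNA, were among the 5 lowest members, at -0.24 (adjusted p = 0.285) and -0.23 (adjusted p = 0.376). The sign of Rps15 turned when a trend with GC content was removed (0.13).

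Among the 43 genes of the large subunit, 18 rose (41.9%, against 18.1% of all genes) and 1 fell (2.33%, against 15.8%), with a median log2 fold change of 0.30. Rpl39, a very small protein in the wall of the tunnel through which the new peptide leaves (chromosome X, 34622515 to 34625397, minus strand), changed most. It had 299, 278 and 367 CPM in the controls and 830, 933, 749 and 738 in WDR11OE. Every WDR11OE tumor was above every control, and the log2 fold change was 1.37 ± 0.14 (adjusted p = 0.00107).

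Rpl38, needed in mouse embryos for translation of a set of Hox mRNAs (chromosome 11, 114529838 to 114533645, plus strand), had 134, 128 and 166 CPM in the controls and 334, 361, 279 and 294 in WDR11OE. Its log2 fold change was 1.15 ± 0.13 (adjusted p = 0.00129). Rpl30, which contacts the small subunit (chromosome 15, 34370260 to 34373395, minus strand), had 253, 221 and 314 CPM against 565, 633, 501 and 483, a log2 fold change of 1.05 ± 0.15 (adjusted p = 0.00257). In all 3 genes the 4 WDR11OE tumors were above the 3 controls, and the calls at an adjusted p under 0.05 held under every alternative run. The 2-fold rule held in all of them for Rpl39 alone of the 3. Rpl38 was at 0.88 with the length trend removed and 0.92 with pseudogene rows added. Rpl30 was at 0.81 with the GC trend removed, 0.78 with both trends removed, 0.98 with the neuron covariate, 0.94 without control 2 and 0.93 without WDR11OE 2. Rps27a passed it as well with upper quartile scaling (1.01), pseudogene rows added (1.06), control 3 left out (1.14) or WDR11OE 4 left out (1.01), and Rps27l without control 3 (1.01).

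Rpl28 was the only member called lower. Rpl28, a large subunit protein without a yeast counterpart (chromosome 7, 4744476 to 4746164, plus strand), had 289, 287 and 382 CPM in the controls. It had 191, 207, 153 and 155 CPM in WDR11OE, below every control, with a log2 fold change of -0.86 ± 0.15 (adjusted p = 0.00541). Its adjusted p stayed between 4.08e-06 and 0.0369 over all alternatives. Of the summed counts of Rpl28 and its pseudogene rows, 43.1% lay in the latter, so the assignment of reads to the parent is uncertain, and with these rows added the log2 fold change was -0.65 (adjusted p = 0.0166). Of its 3 pseudogene rows, Rpl28-ps3 also fell (log2 fold change -0.97, adjusted p = 0.0150), Rpl28-ps1 had -0.29 (adjusted p = 0.168) and Rpl28-ps4 had 0 counts. Rpl29, near the foot of the list, had a log2 fold change of -0.20 (adjusted p = 0.279), whose sign turned with the GC trend removed (0.050).

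Rpl5 and Rpl11 form a particle with the 5S rRNA and, when free, bind Mdm2, the regulator of the p53 protein that these tumors lack. Rpl11 had 308, 316 and 458 CPM in the controls and 551, 599, 487 and 464 in WDR11OE, so that control 3 nearly reached WDR11OE 4. It rose by 0.54 ± 0.17 (adjusted p = 0.0434). Rpl5 had 715, 638 and 813 CPM against 911, 994, 834 and 814, with a log2 fold change of 0.30 that did not pass (adjusted p = 0.102). The Rpl11 call was lost when control 1 or 2 or WDR11OE 1, 2 or 3 was left out, with adjusted p = 0.133, 0.145, 0.151, 0.152 and 0.0681.

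Rpl10, a protein that joins the large subunit last, had 326, 321 and 423 CPM in the controls and 584, 612, 481 and 505 in WDR11OE. It rose by 0.61 ± 0.14 (adjusted p = 0.0142). Rpl22, an RNA-binding protein of the large subunit, had 348, 313 and 386 CPM against 563, 599, 485 and 476, and rose by 0.60 ± 0.12 (adjusted p = 0.00829). Without WDR11OE 1 its adjusted p was 0.0617. Without control 1 or 2 or WDR11OE 1 or 2 the adjusted p of Rpl10 was 0.0528, 0.0587, 0.0759 and 0.0669.

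All 4 members on the X chromosome rose (against 18.1% of all genes tested): Rpl39, Rpl10, Rps4x and Rpl36a, of which the last was named after its values were seen. Rps4x, whose human counterpart escapes X inactivation, had 1352, 1277 and 1507 CPM in the controls and 1912, 2066, 1735 and 1770 in WDR11OE, a log2 fold change of 0.44 ± 0.12 (adjusted p = 0.0284). Rpl36a rose by 0.68 ± 0.17 (adjusted p = 0.0198). Both calls, like that of Rpl10, were lost without control 1 or 2 or WDR11OE 1 or 2, where the adjusted p was 0.0955, 0.0975, 0.157 and 0.146 for Rps4x and 0.0669, 0.0569, 0.0725 and 0.0720 for Rpl36a. With the GC trend removed the value of Rps4x was 0.28 (adjusted p = 0.183), and with GC and length trends removed it was 0.094 (adjusted p = 0.645).

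The P-stalk, the flexible arm that recruits elongation factors, had none of its 3 genes called by edgeR, limma-voom or DESeq2, and none at an unadjusted p under 0.05 in these fits. Of all genes tested, edgeR called 18.1% higher and 15.8% lower, so a count of 0 among 3 genes says little. With the GC trend removed Rplp1 was called higher (0.53, adjusted p = 0.0487), and with the neuron covariate Rplp2 was called lower (-0.42, adjusted p = 0.0115). Rplp0, its base and the most abundant member per kilobase (chromosome 5, 116009476 to 116013736, plus strand), had 2828, 3031 and 3428 CPM in the controls and 3459, 3802, 2960 and 2686 in WDR11OE. The groups overlapped fully, and its log2 fold change was 0.06 ± 0.17 (adjusted p = 0.821), with a sign that turned under some alternatives. The acidic tips differed in sign: Rplp1 had 1055, 1057 and 1344 CPM against 1428, 1654, 1370 and 1173, a log2 fold change of 0.29 (adjusted p = 0.203). Rplp2 had 437, 500 and 590 CPM against 469, 507, 374 and 326, a log2 fold change of -0.28 (adjusted p = 0.274). No test of the stalk against the subunits was made.

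**Figure D3:**
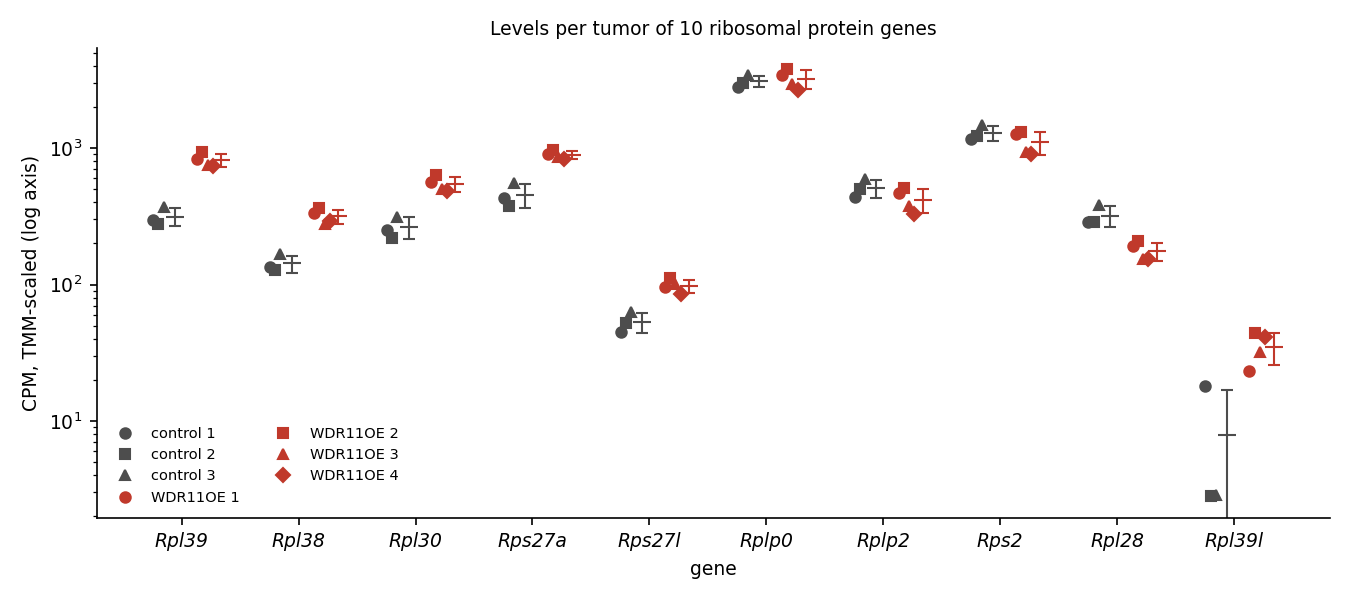
TMM-scaled CPM on a log axis of 10 ribosomal protein genes in each tumor, with a symbol per tumor and the mean ± SD of 3 controls and 4 WDR11OE tumors beside it. Rpl39, Rpl38, Rpl30, Rps27a and Rps27l are higher in all WDR11OE tumors, Rpl28 is lower in all, and Rplp0, Rplp2 and Rps2 overlap; the lower bar of Rpl39l in controls runs off the axis because the SD exceeds the mean.

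Paralogs that can replace a standard protein in the ribosome were followed as log2 ratios to their parent in each tumor, with a two-sided exact permutation test over the 35 splits of the tumors (smallest possible p = 0.0286) adjusted over 6 pairs. Rps27l, a paralog of Rps27 known as a p53 target (chromosome 9, 66793893 to 66797323, plus strand), had 44.6, 52.5 and 62.6 CPM in the controls and 95.1, 111, 101 and 84.5 in WDR11OE. It rose by 0.88 ± 0.14 (adjusted p = 0.00338). Rps27l was at 0.64 with the length trend removed (adjusted p = 0.00639) and at 0.49 with GC and length trends removed (adjusted p = 0.0276). Its share of the counts of the pair was 15.3%, 18.3% and 15.6% in the controls and 22.3%, 21.5%, 23.4% and 21.2% in WDR11OE. All 4 tumors were above all 3 controls, by 0.53 on the log2 scale, with the smallest p the exact test allows, 0.0286, and 0.0857 after adjustment. The adjusted value rests in part on the Rpl3l pair, which had the same exact p but lies near the floor.

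Rpl22l1, the paralog of Rpl22, had 71.6, 70.6 and 85.0 CPM in the controls and 96.6, 126, 131 and 109 in WDR11OE (log2 fold change 0.61, adjusted p = 0.00946), but with the GC trend removed the value was 0.34 and the call was lost (adjusted p = 0.113). With GC and length trends removed it was 0.044 (adjusted p = 0.835). Its log2 ratio to Rpl22 differed by 0.00 between the groups (exact p = 1). Rpl36al, a paralog of Rpl36a outside the symbol rule, likewise rose by 0.64 ± 0.11 (adjusted p = 0.00410), with 89.0, 86.9 and 112 CPM against 155, 159, 141 and 144. Its ratio to Rpl36a differed by -0.05 (exact p = 0.686).

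Rpl39l, the paralog of Rpl39 known from testis (chromosome 16, 10170319 to 10175004, plus strand), had the highest log2 fold change of all members, 2.15 ± 0.71, but was not called (adjusted p = 0.0527). Control 1 had 18.1 CPM, while control 2 and control 3 had 2.79 and 2.88, and WDR11OE had 23.3, 43.8, 32.1 and 41.1. Every WDR11OE tumor was above every control, and without control 1 the log2 fold change was 3.63 (adjusted p = 0.00336). limma-voom and DESeq2 called it higher with all tumors in (adjusted p = 0.0140 and 0.0218). Its log2 ratio to Rpl39 differed by 1.31 and the groups overlapped (exact p = 0.257).

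Rpl3l, the paralog that replaces Rpl3 in skeletal and heart muscle, was near the floor, with 2, 1 and 0 counts in the controls and 14, 19, 13 and 13 in WDR11OE. Its log2 ratio to Rpl3 was higher in all 4 WDR11OE tumors (difference 2.01 with a prior count of 2, exact p = 0.0286, adjusted p = 0.0857), and with so few counts the size depends on that prior. Rpl3l failed the filter and had at most 2 counts in any control, so nothing is concluded from this test. Muscle markers moved the same way: the summed CPM of 8 were 3.42, 4.65 and 2.54 in the controls and 123, 75.1, 140 and 63.3 in WDR11OE. Of these, 7 of 8 rose (87.5%, against 18.1% of all genes), Mybpc3 was the most abundant and Mb had 0 counts in all controls. The part of muscle RNA in the Rpl3l counts was not tested. Rpl7l1, a paralog of Rpl7, had 103, 136 and 143 CPM against 161, 165, 138 and 118 (log2 fold change 0.19, adjusted p = 0.396), and Rps4y2 stayed at or under 1.03 CPM in every tumor. These 2 and Rpl39l were the lowest members per kilobase among those tested.

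**Figure D4:**
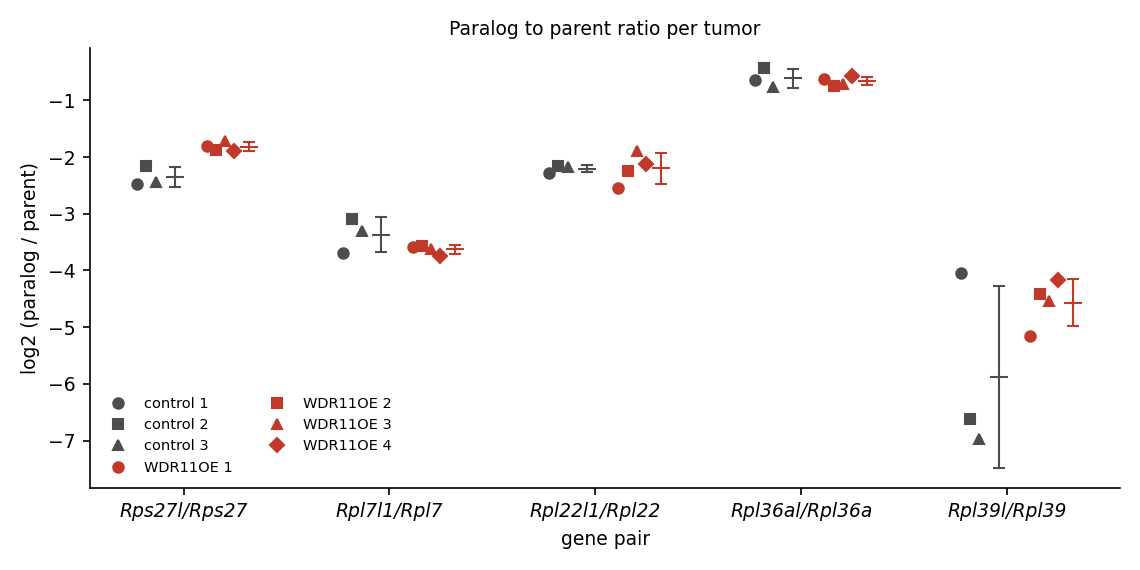
Log2 ratio of each paralog to its parent gene in each tumor (y axis, prior count 2), with the mean ± SD of 3 control and 4 WDR11OE tumors beside the symbols; Rpl3l is left out for its low counts. Of the 5 pairs plotted, Rps27l/Rps27 separates the groups, and control 1 lies near the WDR11OE tumors for Rpl39l/Rpl39.

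The ribosomal protein genes outside the symbol rule differed in their calls. Fau, a fusion of a ubiquitin-like protein and Rps30, had a log2 fold change of -0.18 (adjusted p = 0.340), and its sign turned with the GC trend removed (0.13), while with the length trend removed it was called lower (-0.46, adjusted p = 0.0158). Gnb2l1, the scaffold on the head of the small subunit, had 0.20 (adjusted p = 0.354). Rpl36al, given above, rose.

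The members' fold changes also followed gene composition to a degree. Across 81 tested members with an annotated sequence, the log2 fold change had a Spearman correlation of -0.29 with exon GC content, of -0.20 with the length of the coding transcript and of 0.02 with the length of all exons. Over 14919 protein-coding genes the correlation with GC was -0.35, so lower GC tended to go with a higher fold change among these genes as well. Genes share their libraries, and these values are descriptions. With the GC trend removed, 27 members rose (11.2% of all genes) and Rpl28 fell, with a median of 0.41, and with a trend on exon length removed, 20 rose (15.3%) and 4 fell (15.6%), with a median of 0.22.

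Calls of members depended on these choices, and the lost calls listed below are those of named members only. Of the 34 members called higher, 25 kept the call with the GC trend removed, 20 with the length trend removed and 19 with both. The call was kept by 23 with RLE scaling and by 17 with no filter. With the 100 highest genes left out of the scaling 27 kept it, and with a filter of 1 CPM 30 did. With the GC trend removed, calls were lost for Rps3 (log2 fold change 0.52, adjusted p = 0.0569) and Rpl10 (0.48, adjusted p = 0.0574). They were also lost for Rpl36a (0.54, adjusted p = 0.0663) and Rps3a (0.34, adjusted p = 0.0793), as for Rps4x and Rpl22l1 above. With the length trend removed, calls were lost for Rpl11 (log2 fold change 0.47, adjusted p = 0.0829), Rpl36a (0.52, adjusted p = 0.0508) and Rpl22l1 (0.33, adjusted p = 0.0837). The same held for Rps4x (0.28, adjusted p = 0.152) and Rps3a (0.19, adjusted p = 0.245). Rps15 (-0.50, adjusted p = 0.0264) and Rpl29 (-0.44, adjusted p = 0.0212) were called lower with this trend removed. With RLE scaling, calls were lost for Rpl11 (log2 fold change 0.50, adjusted p = 0.0785), Rps4x (0.40, adjusted p = 0.0665) and Rps3a (0.36, adjusted p = 0.0591). With no filter on low counts, calls were lost for Rps3 (log2 fold change 0.55, adjusted p = 0.0638), Rpl11 (0.49, adjusted p = 0.105), Rps4x (0.39, adjusted p = 0.128) and Rps3a (0.35, adjusted p = 0.110). With the 100 highest genes left out of the scaling they were lost for Rpl11 (log2 fold change 0.50, adjusted p = 0.0706) and Rps4x (0.40, adjusted p = 0.0530). With a filter of 1 CPM the call was lost, among the named members, for Rpl11 (0.53, adjusted p = 0.0503). With GC and length trends both removed, calls were lost for Rpl10 (log2 fold change 0.34, adjusted p = 0.122), Rpl36a (0.36, adjusted p = 0.158) and Rps3a (0.092, adjusted p = 0.589), beside Rps4x and Rpl22l1. Rps19 was called higher with library size scaling (adjusted p = 0.0334), upper quartile scaling (0.0436), both trends removed (0.0356), the neuron covariate (0.0487) and WDR11OE 4 left out (0.0338). With the neuron covariate Rps15 (adjusted p = 0.0275) and Rps2 (0.0253) were called lower, and Rpl39l higher (0.0172). Rpl39, Rpl38, Rpl30, Rps27a, Rps27l, Rpl36al and Rpl28 kept their calls under every alternative run.

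Pseudogene rows give a partial check on where reads were placed, as only rows named with -ps were counted. The 171 rows that carry a member's name with -ps held 0.50% ± 0.04 of counts in the controls and 0.68% ± 0.05 in WDR11OE. Of the 98 tested, 29 rose (29.6%, against 18.1% of all genes) and 11 fell (11.2%, against 15.8%), with a median log2 fold change of 0.13. Of the 29 that rose, 18 had a parent that rose, while 37 of all 98 had such a parent. Adding their counts to the parents gave 36 members higher (43.9%, against 18% of all genes) and 1 lower (against 15.8%). Read placement is likewise uncertain for named members that rose. Pseudogene rows held 46.1% of the summed counts for Rpl10, 29.0% for Rpl38, 28.7% for Rpl36a and 23.3% for Rps27a. With the rows added, the log2 fold change was 0.78 for Rpl10, 0.92 for Rpl38, 0.71 for Rpl36a, 1.06 for Rps27a and 1.02 for Rpl30.

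The mitochondrial ribosome, whose proteins are encoded by separate nuclear genes, was read in the same way. Of 76 Mrpl and Mrps genes 75 were tested, 31 rose (41.3%, against 18.1% of all genes) and 2 fell (2.67%, against 15.8%), with a median log2 fold change of 0.28. Mrpl18 was the highest, from 28.3, 30.9 and 37.3 CPM to 61.5, 63.7, 59.2 and 57.7 (0.91, adjusted p = 0.00125). Mrps2 was the lowest at -0.58 (adjusted p = 0.00537).

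Of 29 genes of ribosome assembly in the nucleolus, 10 rose (34.5%, against 18.1% of all genes) and 2 fell (6.9%, against 15.8%), with a median of 0.08, as for all genes. Npm1, an abundant nucleolar chaperone, had 1334, 1228 and 1662 CPM in the controls and 2332, 2363, 2181 and 2240 in WDR11OE, a rise of 0.69 (adjusted p = 0.00833) that was not called with the GC trend removed (adjusted p = 0.217). Rrs1, needed for assembly of the 5S particle, fell by 0.49 (adjusted p = 0.0491), and lost the call when any of the 7 tumors was left out, with adjusted p from 0.0554 to 0.162. Of 9 chaperones of single ribosomal proteins, 2 rose (22.2%) and 1 fell (11.1%), near the shares of all genes. Pdcd2, the chaperone of Rps2, rose by 0.76 (adjusted p = 0.00945), and Grwd1, the chaperone of Rpl3, had the lowest value at -0.40 (adjusted p = 0.0654), and was called lower by DESeq2 (adjusted p = 0.0373), with library size scaling (0.0332), with the length trend removed (0.0300), with the neuron covariate (0.00968) and without control 1 (0.0462).

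Of 16 translation factors and other mRNAs known to carry TOP motifs, 2 rose (12.5%, against 18.1% of all genes) and 4 fell (25%, against 15.8%), with a median of -0.14. Eif3e, a subunit of initiation factor eIF3, rose by 1.15 ± 0.13 (adjusted p = 0.00127), from 204, 197 and 241 CPM to 476, 564, 426 and 433. Its log2 fold change was 0.74 with the GC trend removed (adjusted p = 0.0162) and 0.55 with GC and length trends removed (adjusted p = 0.0284). Pabpc1, the cytoplasmic poly(A)-binding protein, fell by 1.11 ± 0.14 on the log2 scale (adjusted p = 0.00162), from 1246, 1164 and 1234 CPM to 546, 624, 635 and 439.

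Of 17 genes that control ribosomal protein expression, 5 rose (29.4%, against 18.1% of all genes) and 4 fell (23.5%, against 15.8%), with a median of -0.13. Larp1, the protein that binds TOP motifs, had 378, 368 and 393 CPM in the controls and 163, 182, 211 and 172 in WDR11OE, with no overlap. It fell by 1.06 ± 0.10 (adjusted p = 0.00104). Rps6kb1, the S6 kinase gene, had the highest value, 0.37 (adjusted p = 0.00716), but its sign turned with the GC trend removed (-0.078) and its call was lost without WDR11OE 1 (adjusted p = 0.0506). Myc, which the retrovirus also supplies, had 1108, 821 and 812 CPM in the controls and 390, 431, 278 and 288 in WDR11OE. It fell by 1.40 ± 0.20 (adjusted p = 0.00227), opposite in direction to most members.

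**Figure D5:**
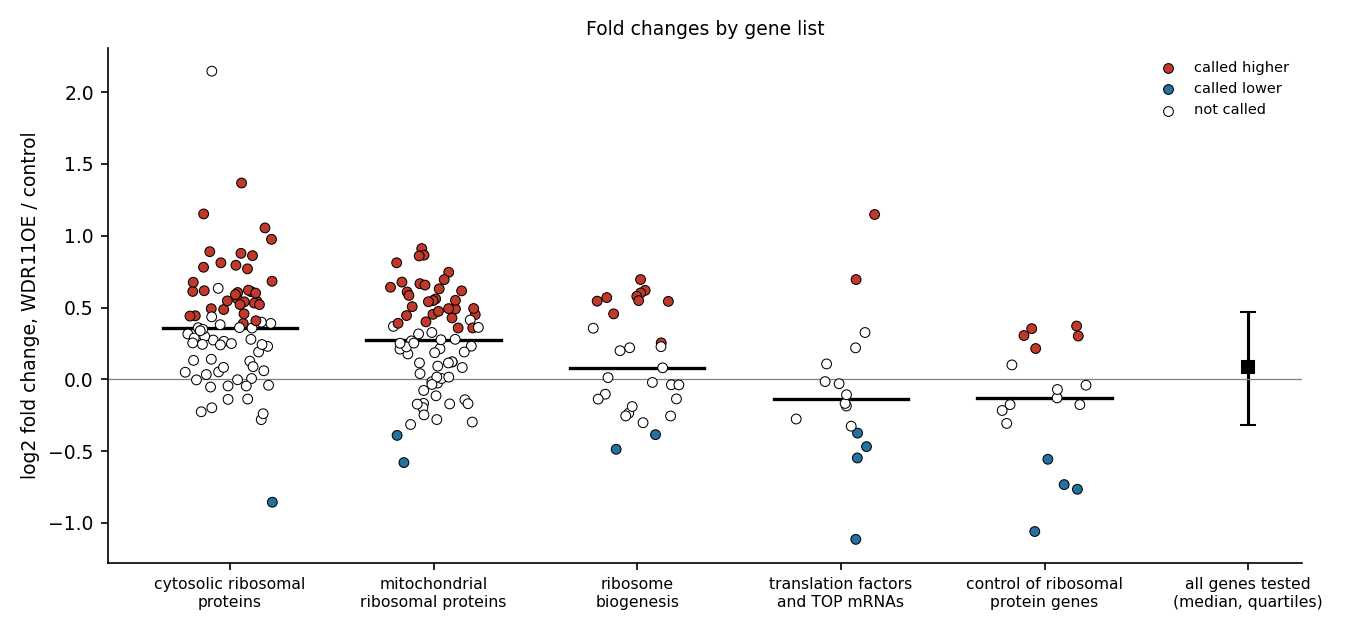
Log2 fold change (WDR11OE over control) of each tested gene in 5 lists, with red for called higher, blue for called lower, open for not called and a bar for the list's median; at the right, the median and quartiles of all genes tested. Medians run from 0.36 for cytosolic and 0.28 for mitochondrial ribosomal proteins to -0.14 for translation factors and TOP mRNAs.

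Markers of the labelled cells and of other cells were read in the same tumors. Of 10 granule lineage markers, Atoh1 had 0 counts in all 7 tumors and Barhl1 was at or near 0, while Nes, Pax6 and Meis1 were present, and none of the 8 tested was called by edgeR or limma-voom (2 higher at an unadjusted p under 0.05 in edgeR, 2 called by DESeq2). The 6 G3 markers with a row summed to 7.81, 9.34 and 11.6 CPM in the controls and 5.11, 5.11, 9.39 and 18.9 in WDR11OE. Among them Otx2, Crx and Nrl were near 0 and Npr3, the most abundant by mean level, had 3.92 to 9.83 CPM. Of the 3 tested, none was called by edgeR (against 18.1% higher and 15.8% lower of all genes), and their log2 fold changes ran from -0.53 to 1.31. Endothelial markers summed to 112, 142 and 129 CPM in the controls and 95.8, 88.7, 86.4 and 86.7 in WDR11OE, with 2 of 6 lower (33.3%, against 15.8% of all genes) and Flt1 the most abundant. Astrocyte markers, led by Gja1, summed to 407, 512 and 420 CPM against 333, 337, 513 and 757, with 1 of 6 higher (16.7%, against 18.1%). Microglia markers, led by C1qa, summed to 149, 261 and 156 CPM against 125, 134, 180 and 242. Oligodendrocyte markers, led by Mbp, summed to 255, 329 and 134 CPM against 189, 131, 128 and 299. Erythrocyte markers, led by Hbb-b1, summed to 1123, 98.9 and 164 CPM against 378, 231, 23.6 and 55.3. None of the last 3 lists had a called gene by edgeR, limma-voom or DESeq2, nor any at an unadjusted p under 0.05. The part of these cells in the members' values was not tested.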

How the data were processed

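Per the labels, libraries were read with CASAVA 1.7, STAR, BWA and HTSeq against mm9 (NCBIM37), and the deposited values are raw counts per gene that the authors made without normalization. Whether counting used strand is not given in the sources used here, which name both stranded total RNA and the TruSeq kit v2. The members and lists were chosen with earlier results of these data known.

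All 7 tumors entered a single fit in R 4.3.3 with edgeR 4.0.16 (filterByExpr with a minimum count of 10, TMM scaling, quasi-likelihood F test on condition), which kept 17389 genes; 8175 genes had 0 counts in all tumors. Calls used an adjusted p under 0.05, and 2-fold calls also a log2 fold change of at least 1 and an average log2 CPM above 0. The study's methods state limma-voom, which was kept here as an alternative (run with limma 3.58.1), as was DESeq2 1.42.0. Ratios and single genes used log2 CPM with a prior count of 2 and exact permutation tests. CPM values are TMM-scaled. Levels per kilobase used the median length of coding transcripts in GENCODE M1; 83 members matched this annotation by identifier, from which coordinates (NCBIM37) were taken. Total counts of 32116095 to 87141305 put 3 counts at 0.0328 to 0.0924 CPM. The typical biological coefficient of variation was 34.6%. No pair of libraries in a group agreed within sampling noise (chi-square per degree of freedom at least 22.6), so no library was taken as a duplicate of another. This does not show that WDR11OE 1 and 2, whose titles share a number, are independent. The fit was also run on simulated data, and no result given here draws on that run. The named genes were the P-stalk, the paralogs, 10 fixed examples, the 5 highest and 5 lowest fold changes, the 3 highest and 3 lowest levels per kilobase, and the highest and lowest gene of each other list. Alternatives were other scalings, filters, tools and thresholds, GC and length trends, pseudogene rows added to parents, and each tumor left out. p-values measure the spread between these tumors only. A further gene outside the symbol rule is not reported here.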

Additional observations from a re-analysis of the deposited data

Results flagged for a closer look

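Of 89 measures looked at over the 4 WDR11OE tumors (82 members, their summed share of counts and 6 paralog ratios), Rps3a had a tumor far from the others. WDR11OE 2 had 1236 CPM against 1097, 1111 and 1097, a gap of 0.891 of the group's whole range on the log2 CPM scale. Chance alone would single out about 1 group in 20. Without WDR11OE 2 the log2 fold change of Rps3a was 0.32 (adjusted p = 0.128), and with it 0.41 (adjusted p = 0.0237), and the call was also lost without 4 of the other 6 tumors, each left out in turn.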

How the results depend on the processing

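The count of members called higher was 34, and 23 to 38 under 3 other scalings, with the members or the 100 highest genes left out of the TMM scaling, with limma-voom or DESeq2, a filter of 1 CPM, pseudogene rows added to parents or a GC trend removed (11.2% to 20.4% of all genes). It was 18 of 83 with no filter (7.92% of all genes), 14 at an adjusted p under 0.01 (8.91%), 20 with a length trend removed (15.3%) and 21 with GC and length trends removed (10.7%, added after seeing the data), and 12 to 41 with a tumor left out (9.11% to 17.6%). The count called lower was 1 in all of these except 4 with the length trend, 4 with both trends (12.3% of all genes) and 4 with the neuron covariate. The median log2 fold change of members was 0.26 to 0.49 and the ratio of summed shares 1.21 to 1.33 with a tumor left out. The cause of these moves was not tested. Log2 ratios with a tumor left out were 0.48 to 0.63 for Rps27l/Rps27, 1.55 to 2.37 for Rpl3l/Rpl3, 0.76 to 2.23 for Rpl39l/Rpl39, -0.43 to -0.13 for Rpl7l1/Rpl7, -0.10 to 0.12 for Rpl22l1/Rpl22 and -0.13 to 0.039 for Rpl36al/Rpl36a.

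Signs turned, at no called value except Rps6kb1, for Rplp0 with the length trend removed (-0.10), with the neuron covariate (-0.036) and with a tumor left out (-0.071 to 0.14), and for Rps24 with both trends removed (-0.20). With the GC trend removed, or fitted without the members, they turned for Rps15 (0.13 and 0.13), Rpl29 (0.050 and 0.052), Fau (0.13 and 0.13), mouse Wdr11 (-0.023 and -0.021) and Rps6kb1 (-0.078 and -0.078). No paired analysis was possible because the tumors of the groups share no replicate numbers in the labels.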
